A study of Arabidopsis thaliana with 8 samples.

Results

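The genes examined here are 35 loci of the Arabidopsis circadian clock and of the *GI*–*CDF* branch that connects the clock to flowering. They were given as a list of gene identifiers, all 35 were matched in the TAIR10.1 RefSeq annotation, and they were set beside all 27444 protein-coding genes of the 5 chromosomes. The data were 4 lists of peaks from chromatin immunoprecipitation and sequencing (ChIP-seq) of CONSTANS (CO), the B-box transcription factor that activates the florigen gene *FT* in long days. CO was fused to the fluorescent protein CITRINE (CO:CIT) and recovered with nanobodies against the tag. The fusion was driven by the promoter of *SUC2*, which is active in phloem companion cells, in a single transgenic line (#5), whereas chromatin came from 5 g of whole seedlings, so that it also held chromatin of cells in which that promoter is not active. The genotypes were *SUC2::CO:CIT* in wild-type Col-0 and *SUC2::CO:CIT aba1-6*, which carries the same transgene in a mutant short of abscisic acid (ABA) because zeaxanthin epoxidase is impaired. Both were grown on plates in 16 h light and 8 h dark and harvested at ZT12, 12 h after lights on, with 2 ChIP libraries each, and no library without the fusion was analysed here. The study asked whether ABA deficiency alters where CO binds.

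The plant clock is a loop of mutual repressors. The MYB factors CCA1 and LHY peak at dawn, the PSEUDO-RESPONSE REGULATORs follow through the day, and the evening complex of ELF3, ELF4 and LUX acts at night, while REVEILLE factors and their LNK partners activate evening genes. The clock sets the hour at which GI and the blue light receptor FKF1 together remove the CYCLING DOF FACTORs (CDFs), which repress *CO* and *FT*. CO binds DNA with NF-Y subunits and recognises the short word TGTG.

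Replicates 1 and 2 of *SUC2::CO:CIT* held 21054 and 22724 peaks, with a genome-wide background of 11.2 and 10.8 fragments at a summit. Replicates 1 and 2 of *SUC2::CO:CIT aba1-6* held 168 and 258 peaks over a background of 3.57 and 0.774 fragments, and their fewest fragments at a summit were 11 and 5. Fold enrichment is the number of fragments at the summit over the local background, with 1 added to both, so that its values are not on one scale in libraries of different depth. A gene was searched over its body and the 3000 bp upstream of its start. A shared peak is one that both *SUC2::CO:CIT* replicates called, the calls overlapping by at least 1 bp and each touching the search window, and it is counted once for every call in replicate 1. Over the genome 16861 replicate 1 peaks overlapped in this way, more than the paper kept after its filter for reproducible peaks (IDR). That filter was not applied here. A library with no peak at a gene gives no value there, since the lists hold called peaks only.

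Of the 35 genes, 15 (42.9%) had a shared peak, beside 47.5% of all protein-coding genes. The 15 were *TOC1*, *PRR5*, *PRR7*, *PRR9*, *GI*, *ELF3*, *RVE1*, *RVE2*, *ZTL*, *FKF1*, *LNK4*, *TIC*, *CDF2*, *CDF3* and *CDF5*. They carried 22 shared peaks, with 9 genes holding 1, 5 genes holding 2 and *FKF1* holding 3. *CCA1*, *LUX* and *RVE6* had a peak in replicate 1 alone and *ELF4* in replicate 2 alone. The remaining 16 had none in either replicate, namely *LHY*, *PRR3*, *BOA*, *RVE3*, *RVE4*, *RVE5*, *RVE7*, *RVE8*, *LKP2*, *LNK1*, *LNK2*, *LNK3*, *CHE*, *LWD1*, *LWD2* and *CDF1*. With a −log10 q of at least 5 in both replicates the count was 13 of 35, beside 39.6% of all genes, and with at least 10 it was 5 of 35 (*CDF3*, *TIC*, *FKF1*, *PRR5* and *PRR7*), beside 16.7%. The share of clock genes with a peak was thus close to that of the genome under each of these thresholds.

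**Figure D1:**
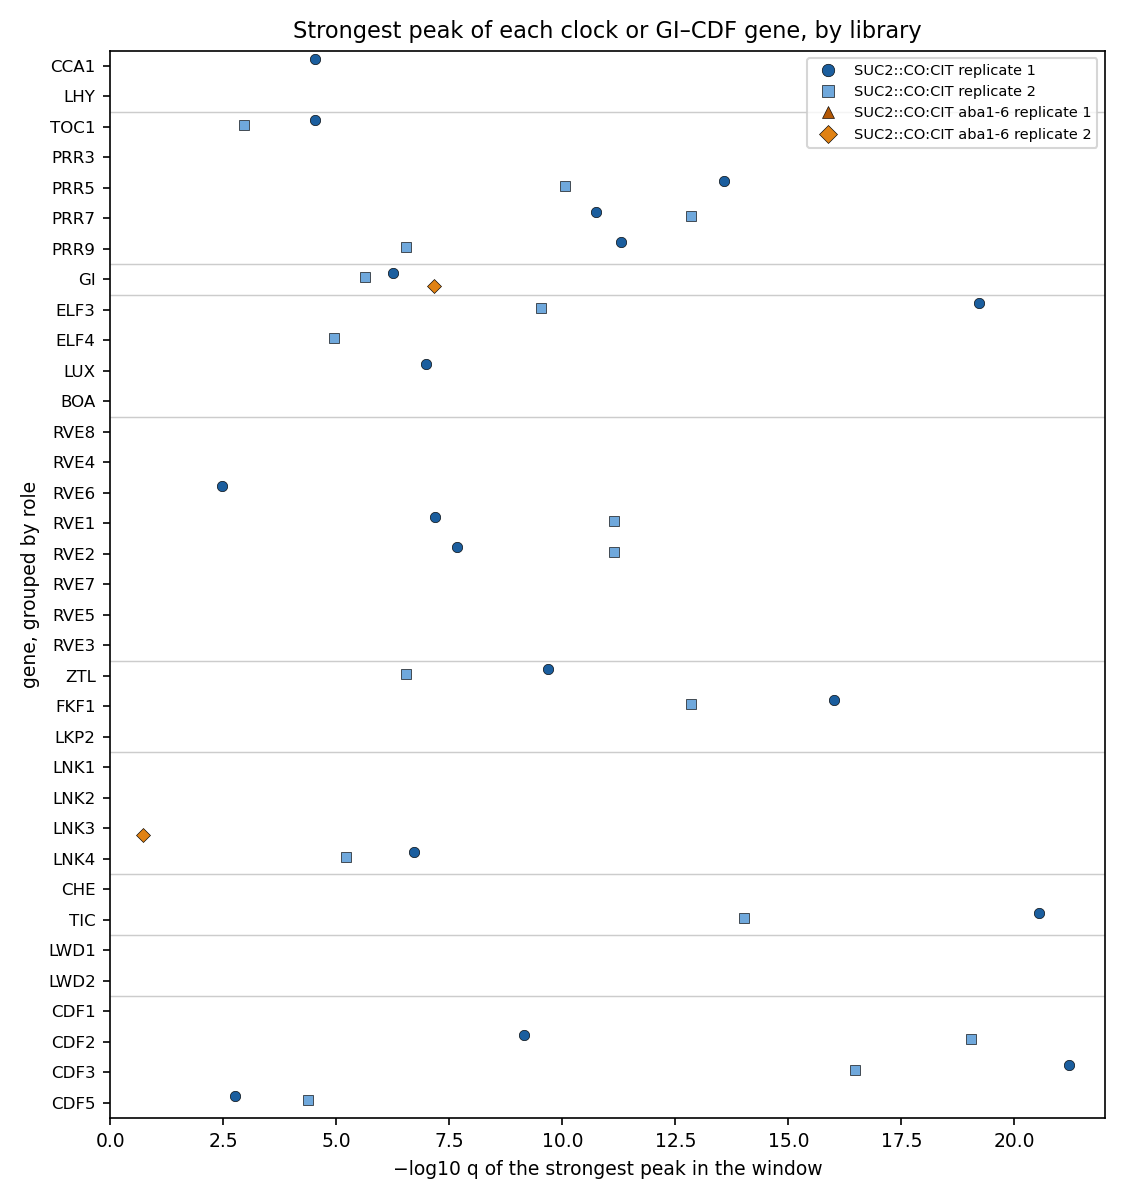
The −log10 q of the strongest peak in the search window (horizontal axis) is plotted for each of the 35 genes (rows, grouped by role), with 1 symbol for each of the 4 ChIP libraries and no symbol where the library had no peak. *CDF3* and *TIC* lie farthest to the right, 16 rows have no *SUC2::CO:CIT* symbol, and *GI* and *LNK3* are the rows with a symbol of *SUC2::CO:CIT aba1-6*.

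The sequences under the strongest shared peak of each of 7 genes are shown because they carry the property that these peaks have in common, long runs of A and T. They are the 100 bp centred on the replicate 1 summit, on the forward strand of TAIR10.1, with TGTG and its reverse complement CACA in capitals.
CDF3 (chr3:17508318-17508417): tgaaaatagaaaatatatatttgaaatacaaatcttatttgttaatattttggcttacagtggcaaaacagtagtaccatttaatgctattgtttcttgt
TIC (chr3:7910794-7910893): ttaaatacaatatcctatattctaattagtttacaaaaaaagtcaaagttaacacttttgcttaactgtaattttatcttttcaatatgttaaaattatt
FKF1 (chr1:25506225-25506324): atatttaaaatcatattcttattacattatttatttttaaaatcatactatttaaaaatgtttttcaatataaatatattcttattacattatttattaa
ELF3 (chr2:11056645-11056744): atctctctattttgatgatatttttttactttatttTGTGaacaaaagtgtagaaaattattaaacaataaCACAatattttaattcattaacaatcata
CDF2 (chr5:15878303-15878402): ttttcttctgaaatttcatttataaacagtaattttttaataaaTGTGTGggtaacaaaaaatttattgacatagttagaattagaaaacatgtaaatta
PRR5 (chr5:8359368-8359467): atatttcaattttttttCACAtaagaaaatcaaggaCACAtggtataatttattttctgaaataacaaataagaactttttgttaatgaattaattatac
RVE1 (chr5:5693645-5693744): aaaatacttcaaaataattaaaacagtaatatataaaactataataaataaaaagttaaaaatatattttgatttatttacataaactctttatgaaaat
Between 9% and 24% of these bases were G or C, and 3 of the 7 stretches, at *ELF3*, *CDF2* and *PRR5*, held a TGTG or CACA word. For comparison, the central 100 bp of the most AT-rich 200 bp outside exons are given for *LHY* and *PRR3*, which had no peak.
LHY (chr1:39866-39965): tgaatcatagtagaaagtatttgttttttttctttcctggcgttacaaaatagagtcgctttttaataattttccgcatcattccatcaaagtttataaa
PRR3 (chr5:24201610-24201709): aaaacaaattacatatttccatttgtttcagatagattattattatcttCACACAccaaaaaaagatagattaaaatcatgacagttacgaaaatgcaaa
These stretches had a GC content of 28% and 24%, and that of *PRR3* held 2 overlapping CACA words without a peak.

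The pseudo-response regulators, transcriptional repressors that act in sequence from morning to evening, had shared peaks at 4 of 5 members, beside 47.5% of all protein-coding genes. That share also stands beside the counts for the other families below, and the families are too small to be compared with it. *PRR5* (AT5G24470) had a pair of them, at 872 bp upstream, where the fold enrichment was 4.02 in replicate 1 and 3.55 in replicate 2, and at 2095 bp upstream with 3.86 and 2.96. *PRR9* (AT2G46790) had a narrow peak 405 bp upstream, with 3.69 and 2.96. *TOC1* (AT5G61380), the evening repressor of *CCA1*, had one of the weakest, with 2.55 at 295 bp upstream and 2.10 at 457 bp upstream. At these 3 genes replicate 1 was the higher of the replicates. The shared peak of *PRR7* (AT5G02810) was not at its promoter but at the far end of the gene. *PRR7* lies at chr5:637681-642030 on the reverse strand, and the summits were at positions 637598 and 637614, just past its 3′ end, with fold enrichments of 3.61 and 3.97. The annotated start nearest to that summit, 30 bp away, belongs to the neighbouring gene AT5G02800.

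Of the morning MYB pair, *LHY* (AT1G01060) had no peak and *CCA1* (AT2G46830) had a peak in replicate 1 only, 2757 bp upstream, enriched 2.55-fold from 30 fragments. The annotated start nearest to that *CCA1* summit, 514 bp away, belongs to AT2G46820. In the evening complex, *ELF3* (AT2G25930), its scaffold protein, had the third strongest shared summit among the clock genes in replicate 1, with 4.76-fold enrichment at 2249 bp upstream against 3.46-fold at 2266 bp upstream in replicate 2. That summit was 633 bp from the start of AT2G25920, closer than to *ELF3* itself. The single-replicate peaks of *ELF4* and *LUX* had fold enrichments of 2.62 and 2.89, and *BOA*, the close homologue of *LUX*, had none. The *ELF4* summit was nearest to the start of AT2G40085, 168 bp away.

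Among the 8 REVEILLE genes, shared peaks were found at *RVE1* and *RVE2*, and the evening-gene activators *RVE8* and *RVE4* had no peak. The replicate 1 peak of *RVE6* had its summit nearest to the start of AT5G52680, 612 bp away. *RVE1* (AT5G17300), which links the clock to auxin synthesis, gave 3.04 and 3.72 at 703 and 690 bp upstream, and 3.04 and 2.28 at 2741 and 2544 bp upstream. *RVE2* (AT5G37260) gave 3.12 and 3.72 at 1033 and 881 bp upstream, and 3.12 and 2.87 at 1840 and 1719 bp upstream. In both genes the proximal peak was higher in replicate 2 and the distal peak was not. Of the LNK genes, which encode coactivators without a DNA-binding domain, *LNK4* (AT5G06980) alone had a shared peak, of 2.96 and 2.70.

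The F-box photoreceptors mark clock and flowering proteins for degradation. *FKF1* (AT1G68050), the GI partner that targets the CDFs, had 3 shared peaks by replicate 1 calls, the most of any of the 35 genes. By replicate 2 calls it had 2, no more than several others. Its replicate 1 summits lay 2364, 1668 and 913 bp upstream, with fold enrichments of 4.35, 3.12 and 2.44. In replicate 2, 1 peak of 895 bp with a fold enrichment of 3.97 covered the place of the outer pair, and another of 2.62 met the proximal one. *ZTL* (AT5G57360), which targets TOC1 and PRR5, gave 3.45 and 2.96 at 1649 and 1627 bp upstream, and the paralogue *LKP2* had no peak. *TIC* (AT3G22380), a nuclear clock regulator, gave 4.93 and 4.14 at 2061 and 2018 bp upstream, and 3.06 and 3.15 near 1062 and 1033 bp upstream. *CHE*, a TCP factor that represses *CCA1*, and the WD40 genes *LWD1* and *LWD2* had no peak.

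The CDF repressors had shared peaks at 3 of 4 members, beside 47.5% of all protein-coding genes. *CDF3* (AT3G47500) had the highest summit of all 35 genes in replicate 1, with 60 fragments and a fold enrichment of 5.01, against 52 fragments and 4.48 in replicate 2, at 2244 and 2292 bp upstream. *CDF2* (AT5G39660) had the highest in replicate 2, with 56 fragments and 4.82 at 307 bp upstream, against 40 fragments and 3.37 at 345 bp upstream in replicate 1. *CDF5* (AT1G69570) was near the lower limit of the lists, with 2.13 and 2.54, and its replicate summits were 418 bp apart. *CDF1*, the best studied of the family, had no peak in any library.

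**Figure D2:**
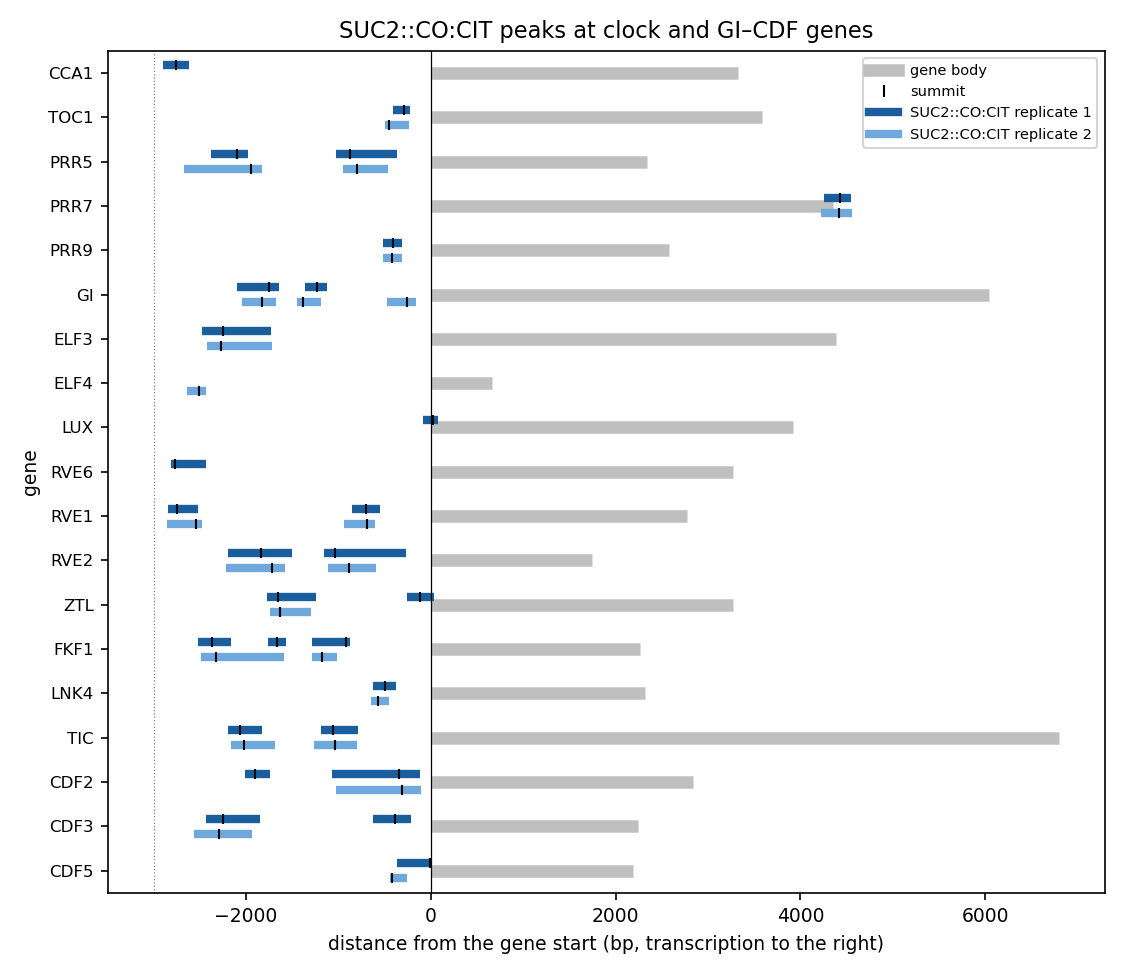
Peaks of the *SUC2::CO:CIT* replicates (coloured bars, replicate 1 above replicate 2) and their summits (ticks) are drawn to scale against the distance from the gene start in bp for the 19 genes with a peak in either replicate, with the gene body in grey and the upstream end of the search window dotted. All peaks but those of *PRR7* lie at or upstream of the gene start, and *PRR7* has its pair at the 3′ end.

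All 22 replicate 1 summits and all 21 replicate 2 summits of the shared peaks were intergenic, outside every annotated exon and intron. From replicate 1, 5 lay within 500 bp of the gene start, 3 at 501 to 1000 bp, 7 at 1001 to 2000 bp and 6 at 2001 to 3000 bp upstream, and that of *PRR7* lay past the gene. With 1000 bp upstream in place of 3000 bp, 10 of 35 genes had a shared peak, beside 34.4% of all genes, and on the gene body alone *PRR7* was the 1 that did, beside 11.5% of all genes. For 16 of the 22 summits the clock gene had the nearest annotated start. Of the other 6, those at *PRR5* (both) and the distal one at *RVE2* were nearest to other annotated loci that do not code for protein, and those at *PRR7*, *ELF3* and *LNK4* to another protein-coding gene. No peak was shared between a pair of the 35 genes.

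The replicates gave similar but not identical values. The ratio of the fold enrichment in replicate 2 to that in replicate 1 ranged from 0.728 to 1.43 over the 22 pairs, and replicate 1 was the higher in 14. The summits were 70.5 bp apart at the median (13 to 656 bp), and 13 pairs lay within 100 bp. At the median these peaks had a fold enrichment of 3.12 (replicate 1) and 2.96 (replicate 2), against 3.28 and 3.30 for all shared peaks of the genome. The peaks of the clock genes were thus of ordinary height, with a median width of 386.5 and 442 bp against 339 and 352 bp.

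Summits at clock genes had a mean GC content of 21.5% ± 0.591 (SD of the replicate means, n = 2) over 200 bp, against 36.0% for the genome and 21.1% for all shared peaks in both replicates. The GC content over 200 bp ranged from 14.5% at the strongest *FKF1* summit to 28.5% at *CDF5* in replicate 1. The windows differed in how AT-rich their most AT-rich 200 bp were. The lowest GC content of any 200 bp had a median of 18% (14% to 24%) in the 15 genes with a shared peak, 22.25% (18% to 23%) in the 4 with a peak in 1 replicate and 25.5% (21.5% to 29.5%) in the 16 with none. Over all protein-coding genes the medians were 18% with a shared peak and 25.5% with none. A window that holds a shared summit also takes in the AT-rich sequence around it, so this measure is not independent of the summit GC content. Window length did not order the genes in this way, with medians of 5768 bp with a shared peak and 5840 bp with none.

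Set out by classes of lowest GC content, the clock genes followed the same order as all genes. Below 17.5%, 6 of 6 had a shared peak (*RVE2*, *ZTL*, *FKF1*, *TIC*, *CDF2* and *CDF3*), beside 92.4% of all genes. From 17.5% to below 20% it was 6 of 7, *CCA1* being the exception, beside 80.4%. From 20% to below 22.5% it was 1 of 3 (*PRR9*), beside 47.7%, and from 22.5% to below 25% it was 2 of 8 (*PRR7* and *CDF5*), beside 17.3%. At 25% or more it was 0 of 11, beside 3.29%, and these 11 include *LHY*, *PRR3*, *CDF1*, *LNK1* and both *LWD* genes. These classes were drawn after peak values had been seen, and the lowest GC content is not independent of that of the summits. They are given as a description, and the part of base composition in the calls was not tested.

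**Figure D3:**
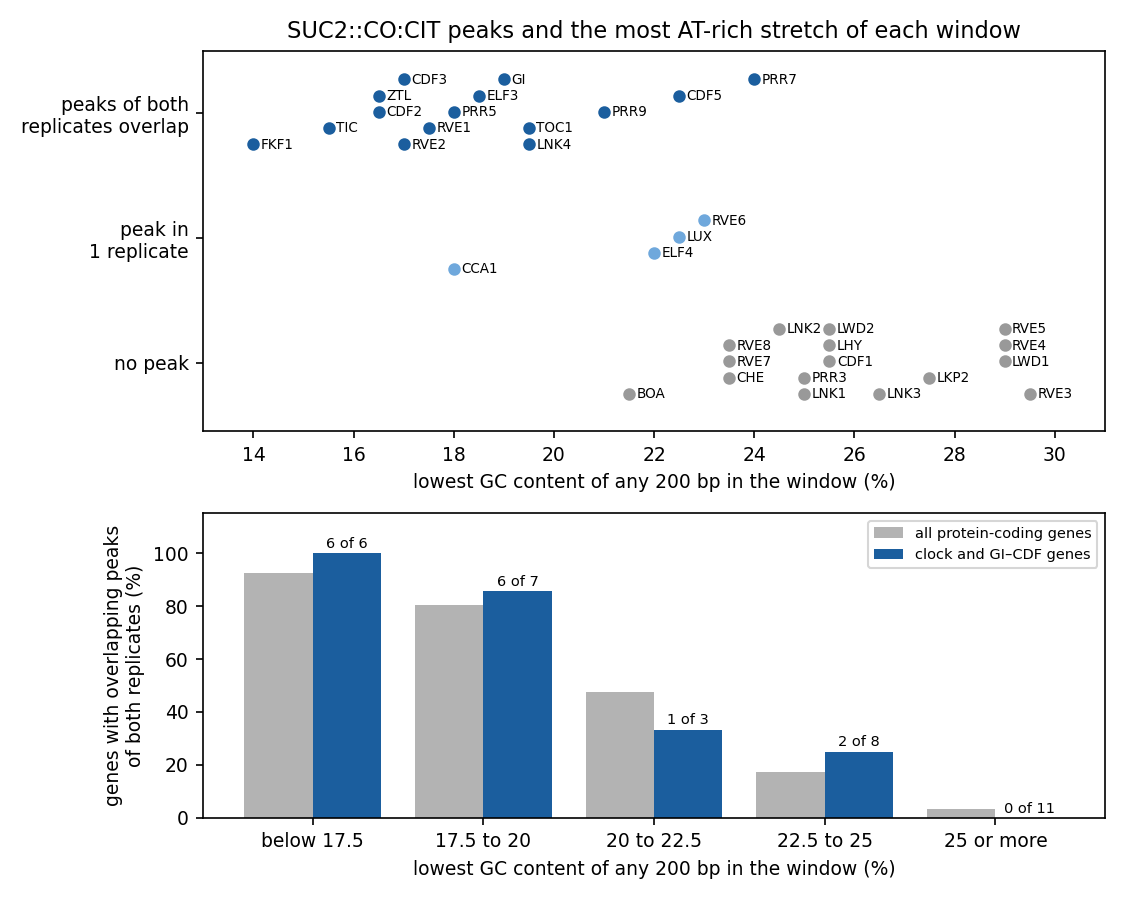
Above, each of the 35 genes is placed by the lowest GC content of any 200 bp in its window (horizontal axis, %) and by whether *SUC2::CO:CIT* peaks of both replicates overlapped there, 1 replicate had a peak or neither did (points are spread vertically for legibility). Below, bars give the percentage of genes with overlapping peaks in 5 classes of that GC content, for all protein-coding genes (grey, 92.4% falling to 3.29%) and for the clock genes (blue, 6 of 6 falling to 0 of 11).

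The word TGTG or CACA occurred in the 100 bp around 10 of the 22 replicate 1 summits (45.5%) and 9 of the 21 replicate 2 summits. The genes concerned in replicate 1 were *CDF2*, *CDF5*, *ELF3*, *FKF1*, *PRR5*, *PRR7*, *RVE1* and *TIC*. The word was found in 33.9% of all shared summits, in 23 of 44 (52.3%) equally wide windows 300 bp before and after the clock gene summits, and in 46.6% of the 100 bp before the start of all protein-coding genes. Its share at the summits was therefore not above that of the flanks. The longer word TGTGNNATG, read on both strands, was at none of the summits, and it was rare in all shared summits too (0.670%). CCAAT, the word bound by NF-Y, was at 1 replicate 1 summit (*PRR9*) and 4 replicate 2 summits, beside 13.5% of all shared summits and 23.0% of promoters. The evening element AAATATCT, which CCA1 and REVEILLE factors bind, was at none, beside 3.36% of shared summits, and the related AAAAATCT was at 2 replicate 1 summits (*GI* and *TIC*), beside 5.64%. The G-box CACGTG was at none, beside 0.202% of shared summits. These are matches of letters and not bound sites.

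The genotypes differed in the number of clock genes with a peak, as they did over all protein-coding genes. In *SUC2::CO:CIT* 18 and 16 of the 35 genes had a peak in replicates 1 and 2, beside 55.4% and 58.5% of all genes. In *SUC2::CO:CIT aba1-6* it was 0 and 2, beside 0.765% and 1.24%. The means were 17 ± 1.41 and 1 ± 1.41 (SD, n = 2), and the groups did not overlap, but the difference of 16 genes had p = 0.333 (two-sided exact permutation test of the 4 libraries), which is the smallest value that 2 libraries against 2 can give. No label pairs the libraries by replicate number, and with the replicate number as a replicate block the difference was again 16, with p = 0.5 in the exact sign-flip test. Depth moved with genotype, and the part of each in this difference cannot be told apart. At the background of *aba1-6* replicate 1, the 22 shared summits thinned in proportion would be expected to give 15.1 calls, and none of the 22 overlapped a peak there. At the background of *aba1-6* replicate 2 they would give 3.72, and 1 did. The same calculation over all replicate 1 peaks gave 13424 and 3220 calls, whereas 168 and 258 peaks were called. The calculation takes the *aba1-6* libraries to be shallower copies of *SUC2::CO:CIT*, which was not tested. It also starts from the highest points of peaks picked because they were called in *SUC2::CO:CIT*. That choice raises the expected counts by an unknown amount, so the gap to the observed counts does not measure a loss of binding. Mean summit GC content over all peaks was 41.6% and 40.3% in *aba1-6*, against 21.8% and 22.1% in *SUC2::CO:CIT*. The paper reports very low mapping rates for the mutant. It subsampled reads of the wild-type fusion line to similar rates. More peaks than in the mutant were still called, but fewer than either count calculated here. The counts here were for backgrounds of 0.319 and 0.0692 times that of *SUC2::CO:CIT* replicate 1. Whether the read number of the paper matches either depth was not determined.

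*GI* was the clock gene with the strongest peaks in *SUC2::CO:CIT aba1-6*, all of them in replicate 2. *GI* (AT1G22770, chr1:8061751-8067790, forward strand) encodes the large protein that pairs with FKF1 and ZTL. In *SUC2::CO:CIT* its upstream region had a pair of shared peaks, both low. Their fold enrichments were 2.79 in each replicate at 1752 and 1823 bp upstream, and 2.87 and 2.54 at 1235 and 1379 bp upstream. Replicate 2 alone had another of 2.45, from 28 fragments, 254 bp upstream. Between 28 and 34 fragments lay at these summits over a background of 10.8 to 11.2.

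In *aba1-6* replicate 2, 3 neighbouring peaks covered the *GI* promoter and the start of the gene. They spanned 1948 bp in all, from 1429 bp upstream to 518 bp downstream of the start. The peak at chr1:8060322-8060969 had a fold enrichment of 7.31 from 12 fragments, with its summit 1106 bp upstream. The peak at chr1:8061110-8061400 had 6.63 from 11 fragments, 520 bp upstream. The peak at chr1:8061555-8062269 had 6.77 from 11 fragments, with its summit in an intron 293 bp downstream of the start. Their −log10 q were 7.17, 5.79 and 6.00, and they ranked 23, 27 and 25 by p among the 258 peaks of that library. The upstream peak overlapped the proximal shared peak of *SUC2::CO:CIT*, and the other two touched the peak that replicate 2 of *SUC2::CO:CIT* had alone. In *aba1-6* replicate 1, which had the deeper background of that genotype, no peak lay at *GI*, so the signal rests on 1 library.

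The 3 *aba1-6* peaks could not be set against *SUC2::CO:CIT* at the same positions, since the lists hold called peaks only. Thinned to the background of *aba1-6* replicate 2, the *SUC2::CO:CIT* replicate 1 summit 1235 bp upstream would hold 2.35 fragments. At that depth 5 were needed for a call. The 12 fragments counted in *aba1-6* lay at another position, 1106 bp upstream, in a peak picked because it was called. These counts therefore do not measure a difference in height. The local background at the 3 summits was 0.774 to 0.810 fragments, about that of the genome. Most strong peaks of that library lay over a raised background or were found in the other replicate. Among the 28 that reached a −log10 q of 5, 5 did not overlap a peak of *aba1-6* replicate 1, and these were the 3 at *GI* and 2 nearest to the start of *AREB3* (AT3G56850), a bZIP gene of the ABA-responsive group. The *AREB3* peaks had fold enrichments of 7.35 and 6.77 from 13 and 11 fragments. Of the 235 peaks with a local background under 2 times that of the genome, 6 had 11 fragments or more. The endogenous *SUC2* gene, whose promoter drives the fusion, starts 28595 bp from the start of *GI*, and no *aba1-6* peak lay within 10000 bp of the *SUC2* start. The cause of the *GI* peaks was not tested.

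**Figure D4:**
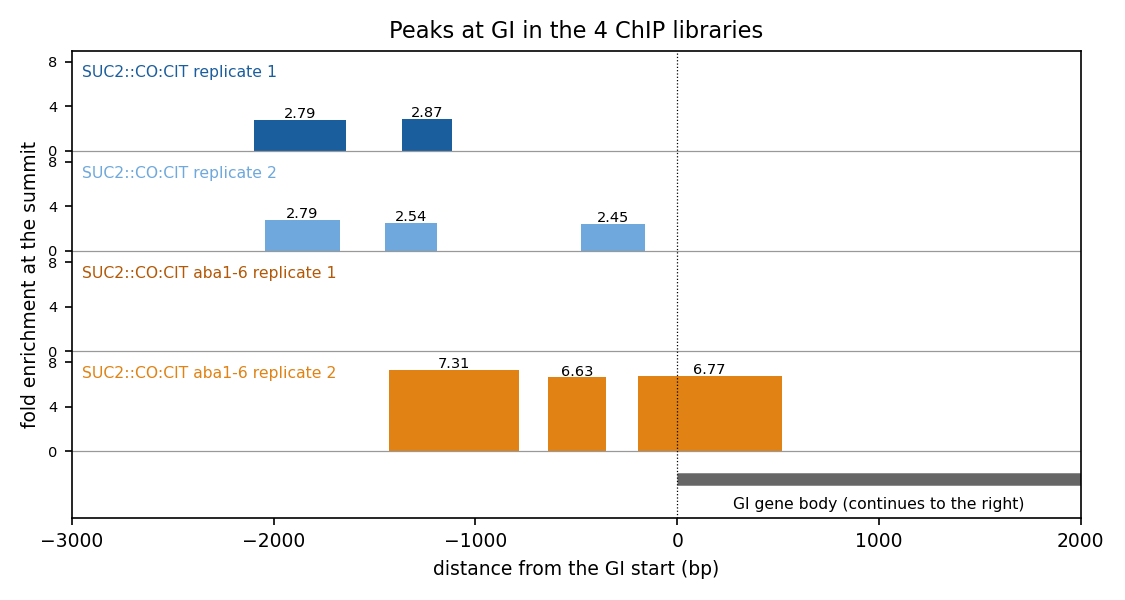
Peaks at *GI* are drawn as boxes in 4 rows, 1 for each ChIP library, against the distance from the *GI* start in bp, with the height of a box giving the fold enrichment at the summit (each row from 0 to 8). Fold enrichments are 2.45 to 2.87 in *SUC2::CO:CIT* and 6.63 to 7.31 in *aba1-6* replicate 2, and the row of *aba1-6* replicate 1 is empty.

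The base composition at *GI* also differed between the libraries. The 200 bp around the 3 *aba1-6* replicate 2 summits had a GC content of 32%, 29.5% and 30.5%. In *SUC2::CO:CIT* the shared summits had 19% and 21% in replicate 1, and 22.5% at both places in replicate 2. The peak that *SUC2::CO:CIT* replicate 2 had alone was at 24%. Over all peaks the mean was 40.3% in *aba1-6* replicate 2 and 21.8% in *SUC2::CO:CIT* replicate 1. The 100 bp around the 2 upstream summits of *aba1-6* replicate 2 and the 2 shared summits of *SUC2::CO:CIT* replicate 1 are given, chosen after their values were seen, so that the called places in this promoter can be compared, again with TGTG and CACA in capitals.
GI, aba1-6 replicate 2 (chr1:8060595-8060694): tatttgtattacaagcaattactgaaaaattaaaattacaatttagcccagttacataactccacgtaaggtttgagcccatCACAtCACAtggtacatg
GI, aba1-6 replicate 2 (chr1:8061181-8061280): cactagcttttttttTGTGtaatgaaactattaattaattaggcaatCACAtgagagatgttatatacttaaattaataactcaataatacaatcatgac
GI, SUC2::CO:CIT replicate 1 (chr1:8059949-8060048): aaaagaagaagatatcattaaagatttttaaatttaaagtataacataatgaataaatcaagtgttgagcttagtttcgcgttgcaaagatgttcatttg
GI, SUC2::CO:CIT replicate 1 (chr1:8060466-8060565): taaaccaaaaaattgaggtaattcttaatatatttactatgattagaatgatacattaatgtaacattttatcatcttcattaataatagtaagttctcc
Over these 100 bp the GC content was 33% and 24% in the *aba1-6* stretches and 25% and 21% in those of *SUC2::CO:CIT*, so that the ranges overlapped. Both *aba1-6* stretches shown held 2 such words, the 100 bp at the third *aba1-6* summit, in the intron, held 0 at a GC content of 30%, and the *SUC2::CO:CIT* stretches held 0. *LNK3* (AT3G12320) was the other gene with a peak in *aba1-6* replicate 2. It rested on 5 fragments, as few as any peak in that library, and had a fold enrichment of 3.15 and 0.715 as −log10 q. Its summit was in a coding exon of the neighbouring gene AT3G12300.

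A further list of 25 clock-associated genes gave similar shares. A shared peak was found at 13 (52%), a peak in 1 replicate or without overlap at 4 and none at 8, and no *aba1-6* library had a peak at any of them. The 3 with the highest −log10 q were *ELF4-L3*, a relative of *ELF4*, with 26.2 and 25.3 at its strongest peak, *FBH2*, a bHLH activator of *CO*, with 22.6 and 19.7, and *COR27*, a cold- and blue light-regulated clock gene, with 15.4 and 22.4. The summits of that *COR27* peak lay past the 3′ end of the gene, nearest to the start of AT5G42895. Of its upstream peaks, the one with the highest mean −log10 q had 10.2 and 13.4. *CDF4*, which belongs to the same DOF family as the CDFs above, also had a shared peak.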

How the data were processed

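ChIP-seq was analysed in 4 libraries, 2 per genotype, from peak lists. The authors used fastp for trimming, Bowtie2 for alignment to TAIR10.1 and macs2 for peaks, calling every replicate separately with the matching input as control. Versions are not given in the sources used here, and the lists precede the IDR and greenscreen filters. The deposited fold enrichment is a ratio with a pseudocount of 1. The −log10 of the p-value and of the q-value were deposited as macs2 wrote them, the latter adjusted within each library. The deposited score and the summit offset are macs2 columns too, and the score was not used further.

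The fragments behind a summit (a whole number) and its local background (a Poisson mean) were solved for jointly from the fold enrichment and p-value. This worked for at least 98.2% of the peaks of each library, and for 100% of 5000 simulated peaks. Relative depth was taken from the most frequent background, since the lists hold no totals, and the fragments set the precision. Expected calls at lower depth were sums of Poisson chances of reaching the lowest −log10 p of a list. Gene models, chromosome names and sequences were those of RefSeq for TAIR10.1. GC content was taken over 200 bp and words over 100 bp around summits. Genotypes were compared by exact permutation of the 4 libraries. Since nothing states whether replicates came from separate sowings, the comparison covers only these libraries. Where the groups do not overlap, its p-value is fixed by the number of libraries and does not measure the spread between them. Every gene of the list was accounted for. Sequences were chosen for the 8 genes with the highest mean −log10 q of shared peaks outside exons, and for 2 without a peak, and 1 of the 8 is not reported here. The genes and lists were chosen with earlier results of these data known. Alternatives were the search window, a stricter q, the overlap required, the width around summits and leaving out each library. Python 3.11.15 was used with numpy 2.4.6, pandas 2.3.3, scipy 1.17.1 and matplotlib 3.10.9.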

Additional observations from a re-analysis of the deposited data

How the results depend on the processing

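The number of clock genes with a shared peak moved by over 1.5 times under the search of the gene body alone (1 gene) and under a −log10 q of at least 10 (5 genes), and it was 10 to 15 under the other alternatives of window, threshold and overlap. From 1 *SUC2::CO:CIT* library alone it was 16 to 18. The difference between genotypes was 15 to 17 genes without any one library and 12 or 13 under the narrower window or the stricter q, always with the smallest p-value possible, 0.333 (0.5 with the replicate block), so these p-values say nothing about stability. The mean summit GC content was 20.0% over 100 bp and 24.5% over 400 bp, and 21.0% to 21.9% from either replicate. A TGTG or CACA word lay within 50 bp windows at 6 of the 22 summits. Raising the lowest −log10 p to 5 lowered the calls expected at the depth of the *aba1-6* libraries to 9.14 and 0.782. Depth limits the *aba1-6* libraries most, where 5 fragments sufficed for a call in replicate 2, and the absence of a peak there is not the absence of CO. The lists hold no coverage outside peaks, and no library without the fusion was analysed here.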
